A study of Mus musculus with 6 samples.

Results

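The core cardiac transcription factors are the proteins that switch on the genes of heart muscle, and 10 of their genes were followed here: Gata4, Gata6, Nkx2-5, Tbx5, Tbx20, Mef2a, Mef2c, Mef2d, Hand2 and Srf. They were taken by name from the array's annotation, through probes that carry exactly 1 gene symbol. Each gene was read by its probe with the highest mean over the 6 arrays, so the members are 10 of 19938 genes measured this way. Transcript levels came from hearts of mice aged 12 months, 3 with the genotype cenpf knock-out and 3 wild-type. Each heart was read on its own Affymetrix MoGene array. The sample labels do not say which parts of the heart were taken. The sample labels name no treatment for either group. The product of Cenpf, centromere protein F, sits at kinetochores of dividing cells and contacts microtubules. The sources used here give neither the strain and sex nor how Cenpf was deleted (which part, in which cells). The labels call the hearts biological replicates, and the comparison answers how knockout hearts differ from wild-type hearts.

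These factors belong to a handful of DNA-binding families that act together. In mouse embryos the zinc finger, homeodomain, T-box, MADS-box and bHLH members bind shared enhancers and each other, and loss of most of them stops heart development. In adult heart muscle they remain expressed and keep the genes of the sarcomere, the natriuretic peptides and calcium handling active. GATA4, the MEF2 proteins and SRF are also known as end points of hypertrophic signalling.

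All levels are on the log2 scale, where a difference of 1 is a doubling. A background level of 6.35 was set, the 95th percentile of probes for odour and pheromone receptors, which heart is assumed not to express. Cenpf itself read 6.35, 6.10 and 6.68 in the knockout hearts, against 8.75, 8.54 and 8.04 in the wild-type hearts. Its groups did not overlap (limma, adjusted p = 0.0286). The knockout mean of 6.37 lay at the background level, so the fitted difference of -2.07 is only a lower limit on the size of the drop, and whether the probe lies in the deleted part is not known. The 12 cardiomyocyte markers, such as Myl2, Tnnt2 and Myh6, averaged between 13.06 and 13.27 on every array, so the label of heart holds by its defining genes. A difference was called at an adjusted p under 0.05 (limma, Benjamini-Hochberg over 21789 probes). By that rule 6 probes were called, 0.0275% of those tested.

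No change was detected in the 10 transcription factors between knockout and wild-type hearts. By limma 0 of the 10 passed at the adjusted threshold, and 0 had an unadjusted p under 0.05, where 9.90% of all probes did. Differences ran between -0.08 for Mef2c and 0.19 for Hand2, with 6 genes higher and 4 lower in knockout hearts. Their median was 0.023, beside -0.0082 over all probes tested, and their median size was 0.078, beside 0.112 over all probes. For the probe used per gene, the lowest 95% bound of any member was a fold of 0.769 and the highest a fold of 1.38, so these 10 intervals lay within 1.5-fold either way. A further Mef2d probe, which is described with that gene, had an interval up to a fold of 1.66. All 10 genes lay above the background level on all 6 arrays, the lowest by 2.87 on average. Knockout and wild-type values were fully separated in 1 of the 10 genes, Gata4. Such separation was seen in 14.8% of all probes, 7.33% with the knockout hearts higher and 7.47% with them lower.

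GATA4 and GATA6 are zinc finger proteins that bind GATA motifs and partly stand in for each other in heart muscle. Gata4 read 10.45, 10.65 and 10.62 in the knockout hearts, against 10.44, 10.36 and 10.45 in the wild-type hearts. The lowest knockout heart lay just above the highest wild-type heart, and the other two knockout hearts lay clearly above it. Its difference was 0.16 and its standard error 0.10 (limma, adjusted p = 0.613). By exact permutation (two-sided) p was 0.1, and 3 hearts against 3 cannot give a smaller value. Gata6 read 10.34, 10.70 and 10.66 in the knockout hearts, against 10.71, 10.64 and 10.57 in the wild-type hearts. Its groups overlapped, with knockout replicate 1 lowest of all hearts. The difference of -0.07 had a 95% interval from -0.35 to 0.20.

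NKX2-5 is the homeodomain factor of heart muscle and of the conduction system. Nkx2-5 read 9.81, 10.06 and 10.14 in the knockout hearts, against 10.08, 9.90 and 10.01 in the wild-type hearts. The knockout hearts held both the lowest and the highest value. The difference was 0.0093, with a 95% interval from -0.26 to 0.28.

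TBX5 and TBX20 are T-box factors, of which TBX5 partners NKX2-5 and GATA4 on atrial and conduction genes and TBX20 maintains the adult heart muscle programme in mice. Tbx5 read 9.14, 9.61 and 9.52 in the knockout hearts, against 9.58, 9.44 and 9.44 in the wild-type hearts. Its knockout values spread most of the 10 genes, with an SD of 0.25, against 0.078 in the wild-type hearts (n = 3 each), and replicate 1 lay far below the other two. The difference was -0.07 with a 95% interval from -0.38 to 0.24. Tbx20 read 10.94, 11.11 and 11.00 in the knockout hearts, against 11.21, 11.13 and 10.93 in the wild-type hearts. Here wild-type replicate 3 was the lowest heart, by a small margin. The difference was -0.07 with a 95% interval from -0.33 to 0.18.

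MEF2A, MEF2C and MEF2D are MADS-box factors that bind the same A/T-rich site and are released from class II histone deacetylases by calcium signals. Mef2a read 11.40, 11.75 and 11.69 in the knockout hearts, against 11.53, 11.44 and 11.58 in the wild-type hearts. Knockout replicates 2 and 3 lay above every wild-type heart and replicate 1 below every one, for a difference of 0.10 with a standard error of 0.12. Mef2c read 9.59, 9.83 and 9.82 in the knockout hearts, against 9.94, 9.82 and 9.73 in the wild-type hearts. Its difference of -0.08 was the lowest of the 10 genes, and its groups overlapped. Mef2d read 10.50, 10.68 and 10.72 in the knockout hearts, against 10.47, 10.41 and 10.59 in the wild-type hearts. Knockout replicates 2 and 3 again lay above all wild-type hearts, and the difference was 0.14 and its standard error 0.10 (limma, adjusted p = 0.666).

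Mef2d was the only member with a further probe that carries its symbol alone. That probe read 7.94, 8.56 and 8.57 in the knockout hearts, against 8.08, 7.93 and 8.05 in the wild-type hearts. It showed the same order of hearts in the knockout group, with replicate 1 apart from the others. Its difference was 0.34, with a 95% interval from -0.06 to 0.73 (limma, adjusted p = 0.549), so the 2 probes pointed the same way and neither passed.

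HAND2 is a bHLH factor known for its role in forming the right ventricle of the mouse heart. Hand2 read 9.11, 9.41 and 9.41 in the knockout hearts, against 9.10, 9.02 and 9.24 in the wild-type hearts. Knockout replicates 2 and 3 lay above every wild-type heart and replicate 1 lay among them. The difference of 0.19 was the highest of the 10 genes, with a standard error of 0.12 and a 95% interval from -0.09 to 0.46 (limma, adjusted p = 0.622).

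SRF is a MADS-box factor that binds CArG boxes, the motif CC, 6 bases of A or T, GG. It serves muscle genes with myocardin and related cofactors, and genes of rapid response with the ternary complex factors. Srf read 9.83, 9.997 and 9.97 in the knockout hearts, against 9.98, 9.93 and 9.77 in the wild-type hearts. The groups overlapped, and the difference was 0.036 with a 95% interval from -0.20 to 0.27. Srf is known to respond to its own product through CArG boxes in its promoter, which is shown for that reason. The 250 bases before its start (RefSeq, GRCm38.p6, chr17:46556163-46556412, minus strand) hold 2 CArG boxes, in capitals, whose first bases lie 82 and 62 bases before the start.
Srf: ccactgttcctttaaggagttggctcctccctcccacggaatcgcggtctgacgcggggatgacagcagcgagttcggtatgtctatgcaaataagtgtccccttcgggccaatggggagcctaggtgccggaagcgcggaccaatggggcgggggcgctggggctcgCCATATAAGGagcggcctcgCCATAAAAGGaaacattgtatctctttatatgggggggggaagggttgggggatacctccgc

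A CArG box stood in 1.63% of 32851 promoter windows of 300 bases (250 before to 50 after a start), searched on both strands. Windows were at hand for 7 of the 10 members, and Srf was the only one of these with a CArG box. Mef2a alone held a MEF2 site, as 3.19% of all windows did. Hand2 alone held a GATA motif, taken as GATA with A or T before it and A or G after it, as 29.8% did. These are matches of letters, with no measurement of binding.

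**Figure D1:**
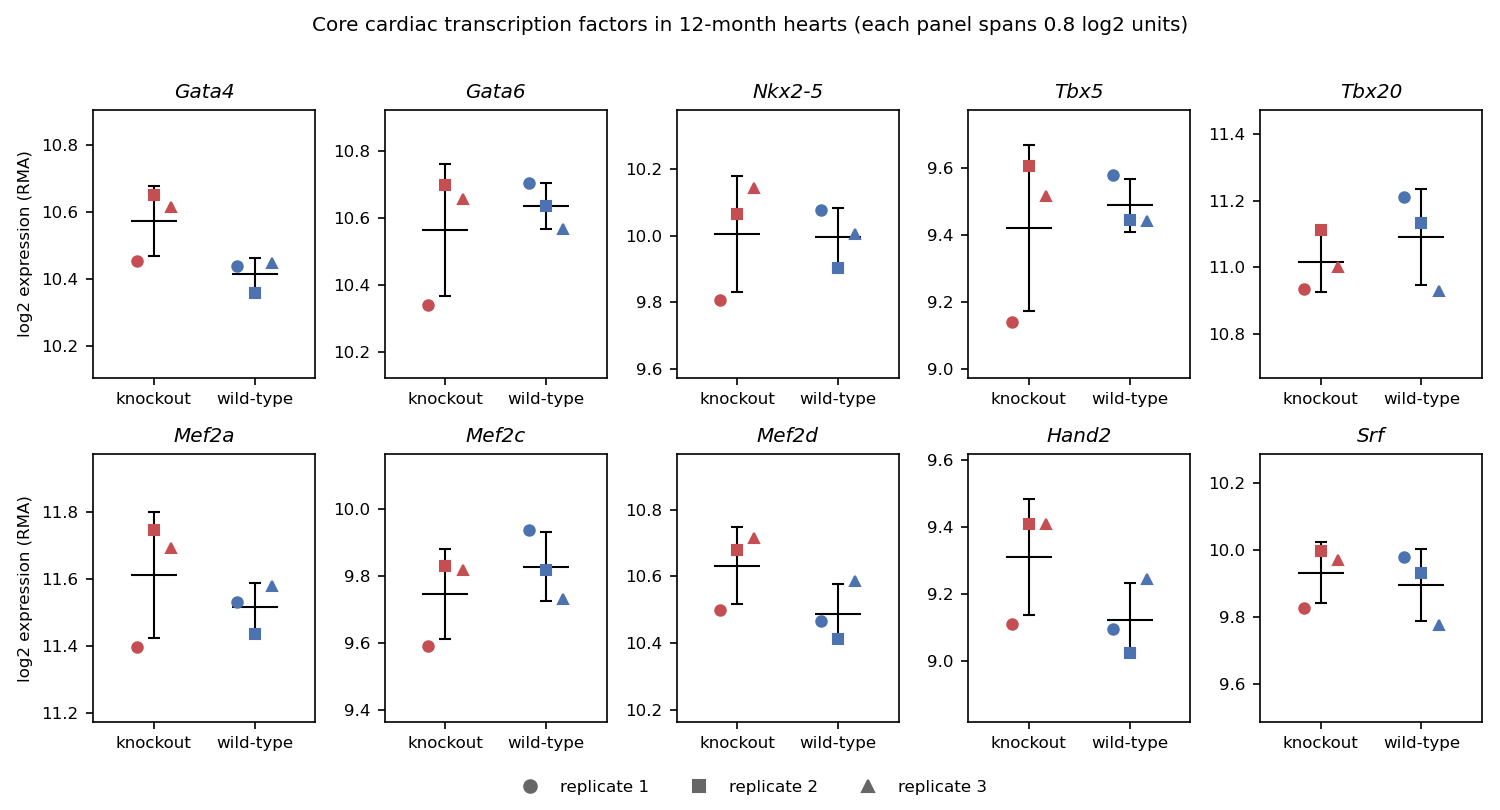
Log2 expression of the 10 transcription factors in each heart, knockout left and wild-type right, with the mean and SD (bars, n = 3). In every panel knockout replicate 1 (circle) is the lowest knockout heart, and only for Gata4 do the groups not overlap.

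**Figure D2:**
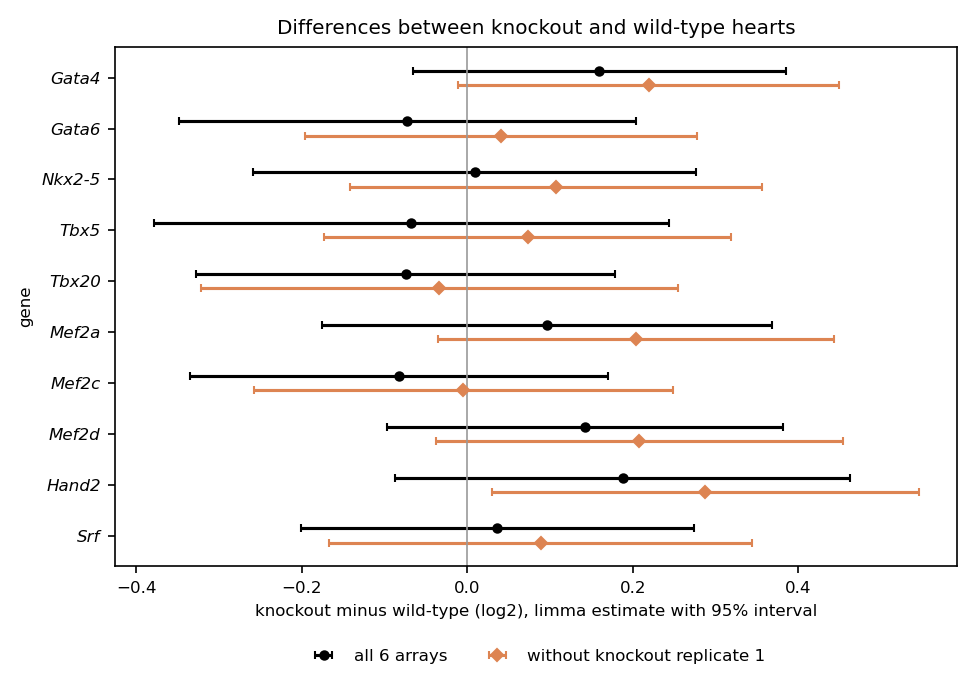
Knockout minus wild-type difference (log2) of each gene with its 95% interval from limma, with all 6 arrays (circles) and without knockout replicate 1 (diamonds). With all arrays every interval crosses 0. Without that heart only that of Hand2 does not, and 8 of the 10 estimates lie above 0.

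The clearest pattern in the 10 genes lay inside the knockout group. Knockout replicate 1 was the lowest of the 3 knockout hearts in 10 of 10 genes, and the lowest of all 6 hearts in 5 of them (Gata6, Nkx2-5, Tbx5, Mef2a and Mef2c). Over all probes tested it was the lowest knockout heart in 36.9%, and over the probes above the background level in 38.9%. It lay below the mean of the other two knockout hearts by 0.12 for Tbx20 up to 0.42 for Tbx5, with a median gap of -0.26. The median gap over all probes was 0.0070. RMA, named in the submitters' notes, aligns the arrays, so a gap near 0 cannot show whether this array was shifted before that step. No wild-type heart stood lowest in more than 5 of the 10 genes. The 10 genes share this heart, so they are not 10 separate observations of it.

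Markers of other cells moved with this heart. Fibroblast markers averaged 10.78 in knockout replicate 1, 10.09 in replicate 2 and 10.21 in replicate 3, against 10.55, 10.71 and 10.22 in the wild-type hearts. In that list 10 of 10 markers were highest in knockout replicate 1 among the knockout hearts, where 38.6% of all probes tested were. Macrophage markers averaged 9.86, 9.13 and 9.29 in the knockout hearts, against 9.16, 9.45 and 9.62 in the wild-type hearts, and 9 of 9 were highest in knockout replicate 1 among the knockout hearts. Of the 12 cardiomyocyte markers, 8 were lowest there, with list means of 13.06, 13.27 and 13.20 in the knockout hearts, against 13.15, 13.06 and 13.20 in the wild-type hearts. Every marker in these 3 lists exceeded the background level in knockout or wild-type hearts. Of the knockout hearts, replicate 1 was also highest for 4 of 4 endocardial, 5 of 6 atrial and 7 of 10 endothelial markers. The same held for 2 of 2 erythroid, 4 of 7 lymphocyte and 4 of 6 adipocyte markers. It held for 3 of 9 smooth muscle and pericyte, 1 of 4 Schwann and neuron and 0 of 5 epicardial markers. Some atrial, lymphocyte, adipocyte and Schwann markers did not exceed the background level in either group. In heart samples of mixed cells, fewer cells of a type and less RNA per cell cannot be told apart. The part of these markers in the low values of the 10 genes was not tested.

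**Figure D3:**
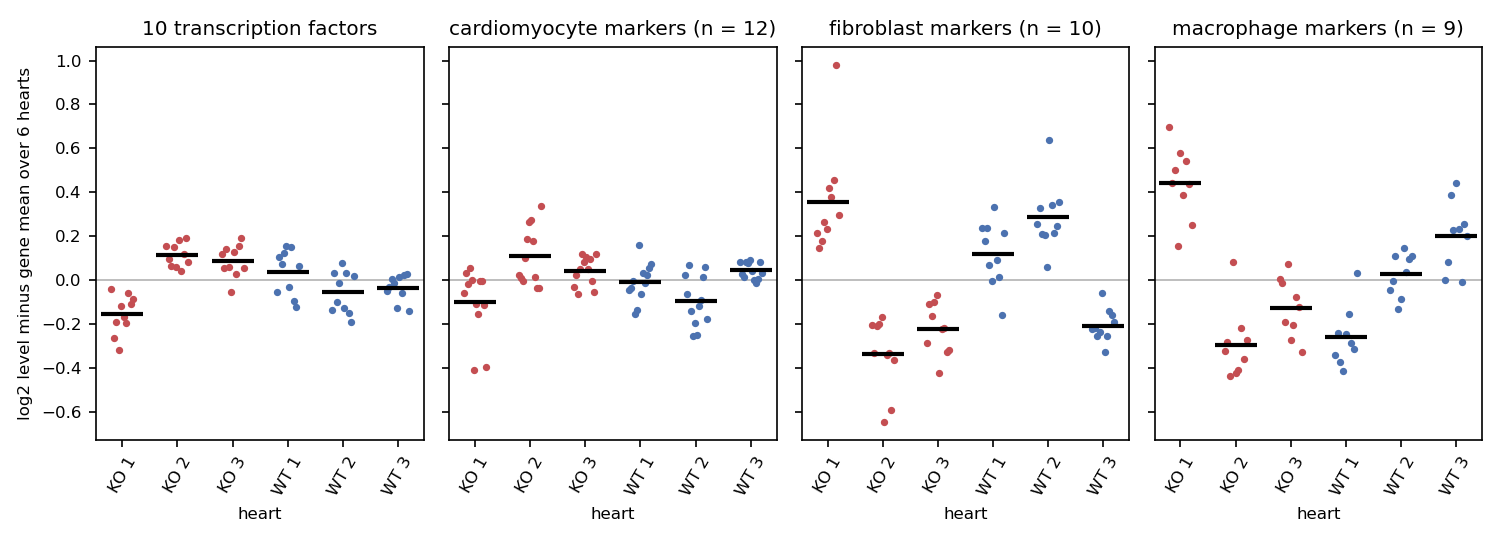
Level of each gene in each heart minus its mean over the 6 hearts (log2), for the 10 transcription factors and 3 marker lists; points are genes and bars are list means. Knockout replicate 1 (KO 1) stands lowest among the knockout hearts for the 10 factors and highest for the fibroblast and macrophage markers.

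Leaving out knockout replicate 1, the lowest knockout heart in every member, raises all 10 estimates by construction, so the counts of higher and separated genes given here describe the other hearts and support nothing. Without it 0 of the 10 genes passed at the adjusted threshold, and 8 of 10 were higher in knockout hearts. Hand2 differed by 0.29 (limma, unadjusted p = 0.034, adjusted p = 0.433) and was the only member with an unadjusted p under 0.05, where 11.2% of all probes had one and 5.26% had one with the knockout hearts higher. Gata4 differed by 0.22, Mef2d by 0.21 and Mef2a by 0.20. With Hand2 these were the 4 members whose groups did not overlap, all higher, where 31.2% of all probes were separated in this way and 15.7% were separated and higher. The median of the 10 genes was 0.098, beside -0.014 over all probes.

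For each factor, the gene with the most similar profile over the 6 hearts was looked up among 13855 other genes above the background level. By Pearson's r these were Etl4 for Gata4, Magi3 for Gata6, Tmem25 for Nkx2-5, Ccdc186 for Tbx5 and Krt10 for Tbx20. For the rest they were Cdk16 for Mef2a, Acp6 for Mef2c, Pkm for Mef2d, Klhl31 for Hand2 and Rcor1 for Srf. The r ranged from 0.979 for Nkx2-5 to 0.999 for Hand2. Between 35 and 199 genes reached an r above 0.95 with a given factor, so over only 6 arrays many genes look alike. Among the members themselves the closest pair was Mef2d and Hand2, with r = 0.992, followed by Gata6 and Tbx5 with r = 0.984. Gata6 and Tbx5 were both lowest of all hearts in knockout replicate 1. Mef2d and Hand2 were both highest in knockout replicates 2 and 3, with replicate 1 among the wild-type hearts.

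Other genes of the same programme were described in 5 lists: related cardiac factors, cofactors, and targets of GATA4 with NKX2-5 and TBX5, of MEF2 and of SRF. Of their 104 genes 100 were measured, and 0 passed at the adjusted threshold by limma. The lists were drawn up with earlier results of these data known. Leading values of the lists follow, and the share of all probes with an unadjusted p under 0.05 was 4.66% on the higher side and 5.24% on the lower.

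Of 20 related cardiac factors, 9 were higher and 11 lower in knockout hearts, with a median of -0.013. An unadjusted p under 0.05 was reached by 1 on each side. Gata5, a relative of Gata4 known from endocardium, read 6.85, 6.65 and 6.55 in the knockout hearts, against 6.87, 7.15 and 7.14 in the wild-type hearts. Its groups did not overlap, and the difference was -0.37 (limma, adjusted p = 0.454). Gata5 lay near the background level, with means only 0.34 (knockout) and 0.70 (wild-type) above it. The 4 endocardial markers averaged 9.59, 9.14 and 8.96 in the knockout hearts, against 9.61, 9.78 and 9.42 in the wild-type hearts, and their part in this result was not tested. Hey1, a Notch-induced repressor, read 8.51, 8.52 and 8.68 in the knockout hearts, against 8.003, 8.22 and 8.43 in the wild-type hearts, without overlap and with a difference of 0.35 (limma, adjusted p = 0.462). Tead1, the DNA-binding partner of YAP1, differed by 0.24.

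Of 22 cofactors and regulators, 14 were higher and 8 lower, with a median of 0.058, and 1 on each side had an unadjusted p under 0.05. Hdac9, a class II histone deacetylase that holds MEF2 proteins inactive, read 8.73, 9.24 and 9.06 in the knockout hearts, against 9.68, 9.51 and 9.23 in the wild-type hearts. Its lowest wild-type heart, replicate 3, lay just below the highest knockout heart, and the difference was -0.47 (limma, adjusted p = 0.457). Myocd, which encodes myocardin, the muscle cofactor of SRF, read 9.79, 10.33 and 10.32 in the knockout hearts, against 10.35, 10.37 and 10.35 in the wild-type hearts. The wild-type hearts lay almost at 1 level with an SD of 0.0094 (n = 3), and all 3 knockout hearts lay below them, replicates 2 and 3 by a small margin and replicate 1 by far more. The difference was -0.20 with all hearts and -0.026 without that heart. Yap1 differed by 0.25 and the LIM protein gene Fhl2 by -0.26. Zfpm2, which encodes the GATA4 partner FOG2, differed by 0.064 (0.15 without knockout replicate 1), and Hopx, which encodes a homeodomain protein that restrains SRF, by -0.12.

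Of 18 targets of GATA4, NKX2-5 and TBX5, 12 were higher and 6 lower, with a median of 0.028, and 1 on each side had an unadjusted p under 0.05. Nppa, which encodes atrial natriuretic peptide, read 13.12, 12.17 and 12.59 in the knockout hearts, against 11.63, 11.65 and 12.47 in the wild-type hearts. Wild-type replicate 3 overlapped the knockout hearts, and the difference was 0.71 (limma, adjusted p = 0.485). Nppb, which encodes brain natriuretic peptide, read 12.07, 11.18 and 11.45 in the knockout hearts, against 10.59, 10.88 and 11.66 in the wild-type hearts, for a difference of 0.52. Leaving out single hearts moved both, to 0.46 for Nppa and 0.27 for Nppb without knockout replicate 1, and to 0.99 and 0.83 without wild-type replicate 3. The 6 atrial markers, which include Nppa, averaged 8.43, 8.12 and 8.03 in the knockout hearts, against 7.96, 7.82 and 8.13 in the wild-type hearts. Of these, 4 were higher and 2 lower in knockout hearts, and only 4 exceeded the background level in knockout or wild-type hearts. The part of these markers in the peptide values was not tested. In both peptide genes knockout replicate 1 stood highest, in contrast to the 10 factors, where the same heart was the lowest of its group. Myh7, the slow myosin heavy chain gene, read 11.48, 10.57 and 10.34 in the knockout hearts, against 11.17, 11.37 and 11.38 in the wild-type hearts. Knockout replicate 1 lay above every wild-type heart and the other two below all of them, so the difference was -0.51 with all hearts and -0.85 without replicate 1 (limma, adjusted p = 0.188). Myh6, its fast counterpart in adult mouse ventricle, differed by 0.053, or 0.14 without that heart. Actc1, the cardiac actin gene, differed by 0.032, and Gja5, the atrial and conduction connexin, by 0.14.

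Of 18 MEF2 targets, 16 were higher and 2 lower, with a median of 0.104, where 47.9% of all probes were higher. An unadjusted p under 0.05 was reached by 3 on the higher side and by 0 on the lower. Nr4a1, an orphan nuclear receptor gene of rapid response, read 9.63, 10.62 and 10.48 in the knockout hearts, against 8.36, 8.32 and 8.83 in the wild-type hearts. Every knockout heart lay above every wild-type heart, with a difference of 1.74 and a standard error of 0.26 (limma, adjusted p = 0.117, and 0.0498 without knockout replicate 1). Jun, a subunit of AP-1, read 10.19, 10.15 and 10.11 in the knockout hearts, against 9.20, 9.49 and 9.88 in the wild-type hearts. The knockout hearts lay close together above a spread of wild-type hearts, and the difference was 0.63 (limma, adjusted p = 0.369). Myot, which encodes the Z-disc protein myotilin, read 11.85, 11.73 and 11.59 in the knockout hearts, against 9.81, 10.41 and 12.19 in the wild-type hearts. Wild-type replicate 3 was the highest of all 6 hearts, and the difference was 0.92 (limma, adjusted p = 0.575), or 1.61 without that heart (adjusted p = 0.0164). The means of this list were 11.38, 11.56 and 11.56 in the knockout hearts, against 11.18, 11.14 and 11.39 in the wild-type hearts, so that wild-type replicate 3 lay at the level of knockout replicate 1.

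Of 22 SRF targets, 13 were higher and 9 lower, with a median of 0.043. An unadjusted p under 0.05 was reached by 6 on the higher side and 2 on the lower. Egr1, a zinc finger gene of rapid response, read 9.28, 9.51 and 9.49 in the knockout hearts, against 8.57, 8.76 and 8.64 in the wild-type hearts. Its groups were well apart, with a difference of 0.77 and a standard error of 0.11 (limma, adjusted p = 0.110). Fos, another such gene, read 7.43, 8.36 and 7.75 in the knockout hearts, against 7.17, 7.14 and 7.54 in the wild-type hearts, with overlap and a difference of 0.56 (limma, adjusted p = 0.484). Acta1, the skeletal actin gene that is re-expressed in stressed heart, read 13.27, 12.31 and 12.50 in the knockout hearts, against 11.84, 11.67 and 12.42 in the wild-type hearts. As with the natriuretic peptides, knockout replicate 1 was highest and wild-type replicate 3 reached the knockout range, for a difference of 0.72 (limma, adjusted p = 0.472), or 0.43 without knockout replicate 1. Acta2, the smooth muscle actin gene, read 11.07, 10.66 and 11.20 in the knockout hearts, against 12.96, 12.76 and 11.07 in the wild-type hearts. Here wild-type replicate 3 lay among the knockout hearts, and the difference was -1.28 (limma, adjusted p = 0.455), or -1.88 without that heart (adjusted p = 0.00699). The 9 smooth muscle and pericyte markers, which include Acta2, averaged 9.39, 9.35 and 9.46 in the knockout hearts, against 9.71, 9.55 and 9.30 in the wild-type hearts. They went both ways: Myh11 and Notch3 each differed by 0.32 without overlap, while Kcnj8 differed by -0.27, and 0 of the 9 passed at the adjusted threshold by limma (3 with an unadjusted p under 0.05). Their part in the value of Acta2 was not tested.

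Leaving out wild-type replicate 3 changed many calls. Without it 293 probes were called, 1.34% of those tested. Among them were 7 genes of the target lists, named here after their values were seen: Ankrd1, Nr4a1, Jun, Myot and Egr1 on the higher side, and Acta2 and Myl9 on the lower. With all hearts and without this one, differences were 0.39 and 0.60 for Ankrd1, 1.74 and 1.90 for Nr4a1, and 0.63 and 0.80 for Jun. For Myot they were 0.92 and 1.61, for Acta2 -1.28 and -1.88, and for Myl9 -0.49 and -0.94. Egr1 hardly moved, with 0.77 and 0.76. Marker lists moved with this heart. Adipocyte markers averaged 6.47, 6.35 and 6.39 in the knockout hearts, against 7.17, 6.78 and 6.45 in the wild-type hearts. Only 4 of these 6 markers exceeded the background level of 6.35 in knockout or wild-type hearts. The list means of the knockout hearts and of wild-type replicate 3 lay near that level. Fibroblast and smooth muscle markers were likewise lowest among the wild-type hearts in replicate 3. The 2 measured erythroid markers, Alas2 and Slc4a1, averaged 9.46, 9.24 and 9.26 in the knockout hearts, against 8.31, 8.59 and 8.92 in the wild-type hearts, and neither gene's groups overlapped. Their median difference was 0.71, and the part of these lists in the values above was not tested. Of the 10 transcription factors 0 were called without wild-type replicate 3, and 4 had groups that did not overlap, where 34.2% of all probes did. Their adjusted p ran from 0.405 for Hand2 to 0.969 for Nkx2-5.

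**Figure D4:**
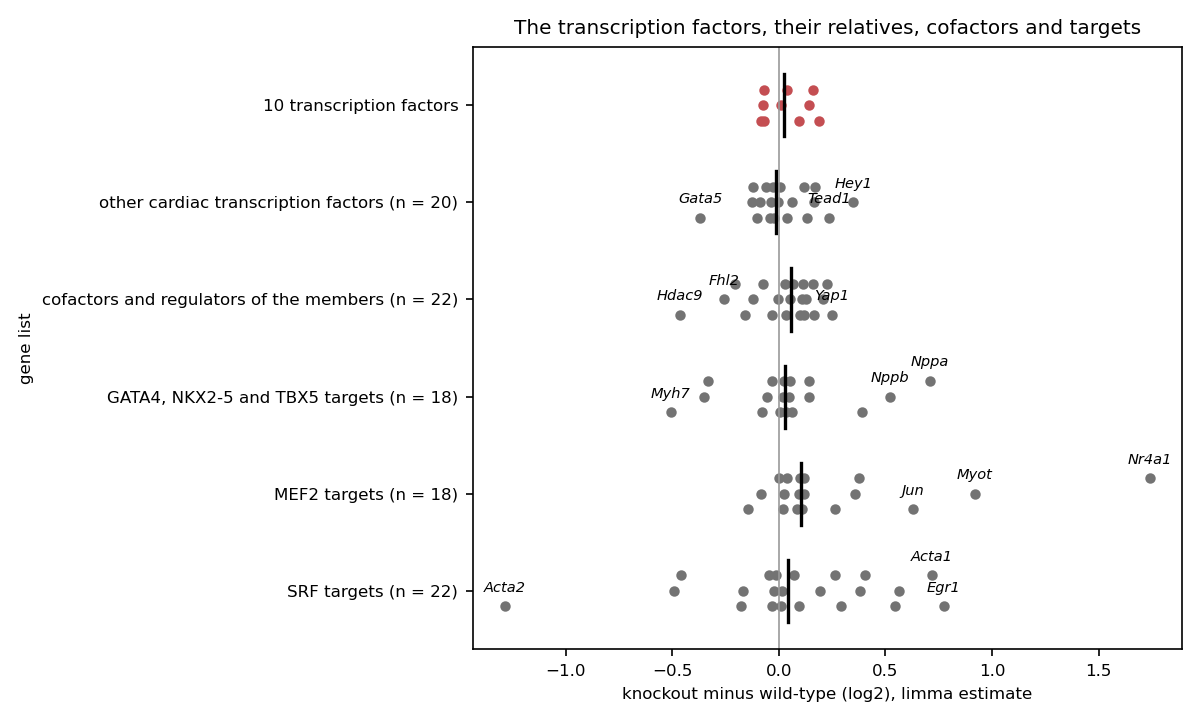
Knockout minus wild-type difference (log2, limma) of each gene in the 10 transcription factors and in the 5 lists around them; vertical bars are medians, and the 3 largest differences of each list are named. The factors lie between -0.08 and 0.19, while single targets reach from -1.28 for Acta2 to 1.74 for Nr4a1.

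Promoters of 4 targets are shown because they carry the motif by which a member is known to act, as examples from the target lists. Actc1 and Acta1 are CArG-box targets with differences of 0.032 and 0.72. Jun is a MEF2 target with a difference of 0.63, and Nppb a GATA4 target with a difference of 0.52. Each is given as the 250 bases before its start (RefSeq, GRCm38.p6), in gene orientation with the motif in capitals: a CArG box for Actc1 (chr2:114052876-114053125, minus strand) and Acta1 (chr8:123894776-123895025, minus strand), a MEF2 site for Jun (chr4:95052223-95052472, minus strand) and GATA motifs for Nppb (chr4:147985650-147985899, plus strand).
Actc1: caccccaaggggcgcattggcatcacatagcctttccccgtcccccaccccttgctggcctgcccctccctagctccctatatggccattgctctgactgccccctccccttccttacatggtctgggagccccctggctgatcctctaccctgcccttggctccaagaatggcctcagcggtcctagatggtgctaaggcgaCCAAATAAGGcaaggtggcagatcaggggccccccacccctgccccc
Acta1: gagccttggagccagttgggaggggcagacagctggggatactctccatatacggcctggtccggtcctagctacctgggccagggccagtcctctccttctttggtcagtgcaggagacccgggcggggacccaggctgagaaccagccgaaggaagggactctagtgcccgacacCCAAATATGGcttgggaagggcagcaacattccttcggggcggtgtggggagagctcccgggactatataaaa
Jun: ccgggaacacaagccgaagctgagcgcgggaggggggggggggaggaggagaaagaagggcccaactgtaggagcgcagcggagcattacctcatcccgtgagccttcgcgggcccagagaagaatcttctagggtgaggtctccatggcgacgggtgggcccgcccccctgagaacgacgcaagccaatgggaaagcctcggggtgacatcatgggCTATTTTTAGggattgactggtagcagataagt
Nppb: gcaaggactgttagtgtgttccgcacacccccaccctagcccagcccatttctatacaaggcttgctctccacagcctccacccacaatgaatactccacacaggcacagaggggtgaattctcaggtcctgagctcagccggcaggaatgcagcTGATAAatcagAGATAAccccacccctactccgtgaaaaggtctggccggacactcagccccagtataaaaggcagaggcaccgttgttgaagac

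The first base of the motif lies 47 bases before the start in Actc1, 73 in Acta1 and 33 in Jun, and 95 and 84 in Nppb. Counts here are of genes with the motif in any of their windows, set beside shares of single windows. Of the SRF targets with a window, 6 of 15 held a CArG box (Acta1, Dmd, Egr2, Fhl1, Myl9 and Vcl), beside 1.63% of all windows. Of the MEF2 targets 5 of 15 held a MEF2 site (Jun, Klf2, Myoz2, Pgam2 and Xirp2), beside 3.19%. Of the GATA4, NKX2-5 and TBX5 targets, 7 of 17 held a GATA motif (41.2%), beside 29.8% of all windows and 8 of 15 MEF2 targets (53.3%). In the same 17 genes an NKX motif, TCAAGTG with C or T as its second base, stood in 0 and the T-box motif AGGTGT in 2, beside 5.34% and 13.7% of all windows. The lists hold genes known as targets, and the number of windows differs between genes, so these shares describe the lists and were not tested. Nr4a1, with the largest difference of the MEF2 targets, had no MEF2 site in its window.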

How the data were processed

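Log2 expression values of 6 arrays, 1 per heart, were used as deposited. RMA and Partek 6.6 are named, per the submitters' processing notes; RMA is a method of background correction, quantile normalization and probe summary, whose settings here, like the genome build, the sources used do not give. The deposited log2 values had array medians between 6.92 and 6.97 over 35556 probes, so no further normalization was applied. Precision is limited by how few arrays there are.

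Of the probes, 21789 carry exactly 1 gene symbol in the array's annotation, 1621 several, and 12146 are unnamed here. The background level is the 95th percentile of the means of 1205 receptor probes, and 71.2% of the named probes lay above it.

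Groups follow the sample titles. Knockout minus wild-type was fitted with limma 3.58.1 (lmFit, eBayes) in R 4.3.3 on the 21789 probes, two-sided, with Benjamini-Hochberg adjustment, and tested on simulated data. Members and lists were chosen with earlier results of these data known. Named were the members, Cenpf, 12 set genes, and of each list the 3 largest differences above background and any call. Alternatives were 3 normalizations, a filter on dim probes, all probes as the tested family, a gene's mean over probes, other variance models, array weights, a replicate block and leaving out each array. Promoter windows and gene names came from RefSeq (GRCm38.p6). Figures used matplotlib 3.10.9.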

Additional observations from a re-analysis of the deposited data

How the results depend on the processing

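The call on the 10 transcription factors held under all 16 alternatives, with 0 members passing at the adjusted threshold in any of them and adjusted p from 0.230 to 0.998. Of the 160 member values so obtained, 7 changed sign, all of differences near 0. Nkx2-5 became -0.0013 with quantile normalization, and with an array left out it ran between -0.059 (without knockout replicate 3) and 0.11, also below 0 when knockout replicate 2 (-0.020) or wild-type replicate 2 (-0.037) was left out. With an array left out, Gata6 ran between -0.14 and 0.041 and Tbx5 between -0.16 and 0.073, both above 0 only without knockout replicate 1, and Srf between -0.024 (without wild-type replicate 3) and 0.089. The cause was not tested. Members with an unadjusted p under 0.05 numbered 1 with array weights and 0 to 1 with an array left out. Members whose groups did not overlap numbered 0 with cyclic loess normalization and 1 to 4 with an array left out, the count of 4 coming without knockout replicate 1 or wild-type replicate 3. Knockout replicate 1 was the lowest knockout heart in 10 of 10 members under every setting that kept the 3 knockout hearts, a count added after seeing the data.

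Calls over the whole table depended far more on the setting: 1 with all probes of the table tested, 0 with a plain linear model (no variance sharing, where 1791 had an unadjusted p under 0.05), 22 with a trend and robust variance model, 33 with array weights, 11 with the replicate block, and 1 to 293 with an array left out. Of these calls, MEF2 targets had 1 with array weights, 1 with the replicate block and 0 to 3 with an array left out. SRF targets had 1 with the trend model, 1 with array weights and 0 to 3 with an array left out, and GATA4, NKX2-5 and TBX5 targets 0 to 1 with an array left out. The sample titles name no pairing, and the replicate numbers were not taken as one. Deviations of same-numbered hearts from their group means correlated at -0.11, -0.16 and -0.0031 over all probes tested. With 3 hearts a group this cannot exclude a pairing. With the replicate block 0 members were called. The median of the members was 0.098 without knockout replicate 1 and below 0 without knockout replicate 2 (-0.0083), knockout replicate 3 (-0.021) or wild-type replicate 3 (-0.0045), so its sign rests on single hearts. With 3 hearts a group, a difference whose interval holds 0 cannot be told from 0.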
